A study of Homo sapiens with 4 samples.

Results

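Actin and its relatives were followed across the knockdown of one of them, ACTL6A, in SNU638 cells, a human gastric cancer line kept in culture and held by a cell bank. The 10 genes examined were the nuclear actin-related proteins ACTL6A, ACTL6B, ACTR5, ACTR6 and ACTR8, and the actins and cytoplasmic actin-related proteins ACTB, ACTG1, ACTR2, ACTR3 and ACTR1A. Every array probe set whose annotation gave exactly 1 gene symbol, that symbol being one of these, was taken. This found 20 probe sets of 7 genes, out of 54675 probe sets on the array and 19775 genes with such a probe set. ACTB had 6 probe sets, ACTR3 had 5, and ACTL6B, ACTR5, ACTR6 and ACTR8 had 2 each, while ACTL6A had 1. ACTG1 appeared only in 9 probe sets that the annotation gives to ACTB and ACTG1 together, and ACTR2 and ACTR1A have no probe set under their own symbol in that table, so neither is analysed here.

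Actin-related proteins share the actin fold. The nuclear ones rarely form filaments and instead sit, often together with monomeric actin, on the motor subunit of chromatin remodelling complexes. ACTL6A (BAF53A) belongs to the BAF complexes and also to INO80, SRCAP and TIP60, and its paralogue ACTL6B (BAF53B) takes its place in BAF when neural progenitors become neurons. ACTR5 and ACTR8 belong to INO80, and ACTR6 belongs to SRCAP, which deposits the histone variant H2A.Z. In the cytoplasm, ACTB and ACTG1 build actin filaments, ACTR2 and ACTR3 are the core of the filament-branching Arp2/3 complex, and ACTR1A forms the short filament of dynactin, the partner of the dynein motor. Actin itself is found in both compartments, so "cytoplasmic" below is a name for the second set of genes and not a location that was measured.

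RNA was profiled on 4 single-colour arrays. In 2 of them (scramble) the SNU638 cells carried a scramble RNA, and in the other 2 (sh-ACTL6A) an shRNA against ACTL6A, delivered by lentivirus in the pLKO.1 vector with polybrene and followed by puromycin selection. The cells carried no other labelled alteration. The labels' protocol names 2 hairpins, shACTL6A-1 and shACTL6A-2, and the study's methods a further one, shACTL6A, but the labels do not tie a hairpin to an array, and they are silent on whether replicates were separate cultures, so p-values measure the spread between these arrays only, which may be technical.

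Values are log2 signals as deposited, and differences are sh-ACTL6A minus scramble. A probe set was called above the signal threshold if its mean over the 4 arrays reached 5.63, the median of all non-control probe sets. Of the 20 probe sets, 18 were above it, and the 2 below it were those of ACTL6B. Signals of different probe sets depend on their probes, so no probe set's level was set against another's. By their brightest probe sets, 5 of 6 epithelial markers were above the threshold (EPCAM, CDH1, KRT8, KRT18 and KRT19, with CLDN4 below it). The same held for 3 of 6 neuronal, 2 of 5 smooth muscle, 2 of 5 fibroblast and 0 of 4 leukocyte markers. Among all genes 12286 of 19775 were above it, and neuronal TUBB3 read 12.92 to 13.29, so these counts alone say little about cell type. Median log2 signal per array ran from 5.70 to 5.83. The 2 scramble arrays differed by 0.366 (root mean square over tested genes) and the 2 sh-ACTL6A arrays by 0.441. Pairs from different groups gave 0.392 to 0.437, so the scramble arrays were closer to each other than to any sh-ACTL6A array, while the sh-ACTL6A arrays were farther from each other than from either scramble array.

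ACTL6A, the targeted gene, was the member that fell. Its probe set (202666_s_at) had a linear signal of 3867 and 3624 on the scramble arrays and of 1146 and 1277 on the sh-ACTL6A arrays. Both sh-ACTL6A arrays therefore lay well below both scramble arrays, and 30.6% and 34.1% of the scramble mean was left on them. On the log2 scale the 4 pairs of a sh-ACTL6A with a scramble array differed by -1.75 to -1.5, against a gap of 0.09 within scramble and 0.16 within sh-ACTL6A. The fit over genes, each represented by its brightest probe set, gave a difference of -1.63 ± 0.14 (SE, 2 arrays per group; limma adjusted p = 0.0408). ACTL6A was the one gene called in that fit, which is 0.00814% of the 12286 genes tested. The call did not hold over all 54619 probe sets, where ACTL6A had the smallest p but an adjusted limma p of 0.282 (difference -1.63 ± 0.12, SE). In that fit limma called 0 probe sets, 0% of those tested, while 2737 passed an unadjusted p under 0.05 and the methods' t-test, adjusted in the same way, also called 0. Nor did the call over genes hold when scramble replicate 1 or scramble replicate 2 was left out (differences -1.58 and -1.68). The call held without sh-ACTL6A replicate 1 or sh-ACTL6A replicate 2 (-1.55 and -1.71). Each of these fits leaves 1 array in a group. With RNA from whole cultures, a partial loss in every cell and a complete loss in some of the cells cannot be told apart.

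The size of the ACTL6A fall was unusual for so bright a gene. A total of 8 genes had a larger difference downwards, but their mean signals were 5.64 to 6.86, close to the signal threshold, and their smallest adjusted p was 0.360. Among the 3144 other genes at least as bright as ACTL6A, differences ran from -1.06 (PAFAH1B2) to 1.0 (SGPL1). Among the 2983 probe sets within 0.5 log2 units of its brightness, itself included, 1 other differed at least as far, that of SLC2A3 at 1.89. Of the other 19 member probe sets, those of ACTL6B (206013_s_at), ACTR6 (241794_at) and ACTR3 (239170_at) lay farthest from 0, at 0.90, 0.86 and 0.36.

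**Figure D1:**
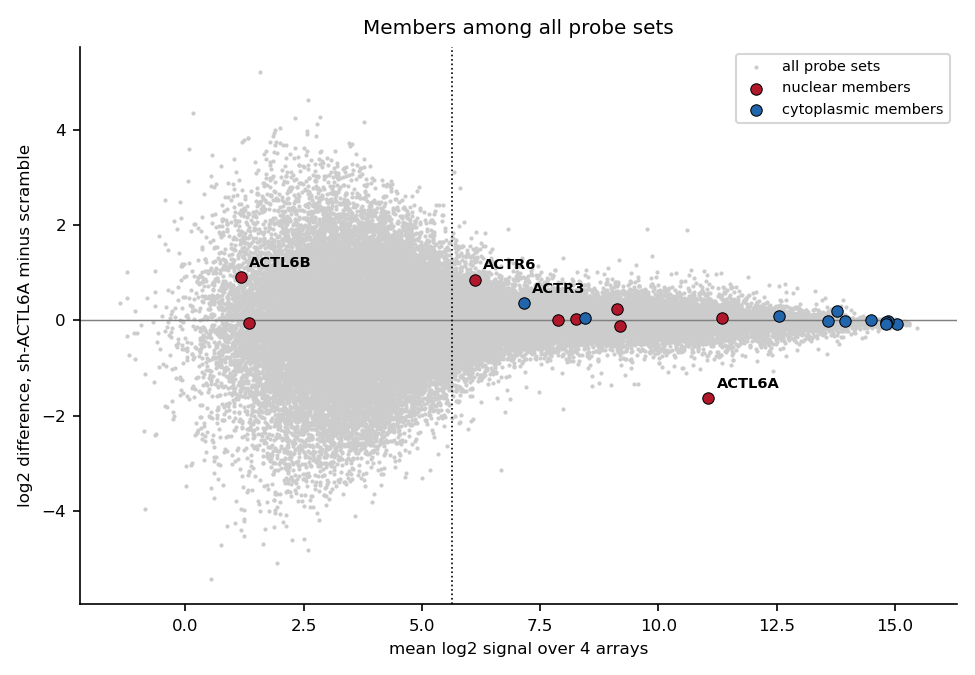
Log2 difference (sh-ACTL6A minus scramble, vertical axis) against mean log2 signal over the 4 arrays (horizontal axis) for all probe sets (grey) and for the 20 member probe sets (coloured by nuclear or cytoplasmic), with the signal threshold as a dotted line. The spread narrows as probe sets become brighter, ACTL6A stands at -1.63, and the members above the threshold other than ACTL6A run from -0.11 to 0.86.

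ACTL6B, the neuronal paralogue that could take the place of ACTL6A in BAF, read near the bottom of the signal range in both groups. Its probe set 206014_at read 1.5 and 1.24 in scramble against 1.17 and 1.46 in sh-ACTL6A. These groups overlap, and the difference was -0.06 ± 0.84 (SE). The other probe set, 206013_s_at, read 0.67 and 0.76 in scramble against 1.57 and 1.67 in sh-ACTL6A. Here both sh-ACTL6A arrays were higher than both scramble arrays, but all 4 values were among the dimmest on the array, with 1.80% of all probe sets dimmer on average. In linear signal these were 1.60 and 1.70 against 2.98 and 3.18, a step of 1.43 units, on arrays that were each scaled to a trimmed mean of 500. The log2 difference of 0.90 ± 0.83 (SE) did not pass limma's test over all probe sets (adjusted p = 0.960), and its 95% confidence interval, as a fold, ran from 0.473 to 7.41. Of the 1797 probe sets within 0.5 log2 units of its brightness, 39.8% differed at least as far in either direction. Genes that BAF exchanges alongside ACTL6A and ACTL6B were read beside it. The progenitor subunits PHF10, DPF2 and SS18 differed by 0.21 ± 0.15, 0.18 ± 0.14 and -0.01 ± 0.12 (SE), and the neuronal subunits DPF1, DPF3 and SS18L1 by 0.40 ± 0.28, -1.02 ± 0.57 and 0.11 ± 0.14 (SE). With the brightest probe sets, groups overlapped for SS18, DPF1 and DPF3, and none of the 6 passed the test (smallest limma adjusted p 0.918). The second DPF3 probe set above the threshold differed by -0.58 with both sh-ACTL6A arrays lower than both scramble arrays. The DPF3 probe sets below the threshold differed by 0.79 and 1.09. The neuronal markers above the threshold, TUBB3, MAP2 and SNAP25, differed by -0.16, -0.22 and -0.39 with overlapping groups, and SYP, STMN2 and RBFOX3 were below it.

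ACTR5, an INO80 subunit, read 9.21 and 9.27 in scramble against 9.09 and 9.17 in sh-ACTL6A with its brighter probe set, 219623_at. The sh-ACTL6A arrays were both lower, but the closest arrays of different groups were 0.04 apart, and the difference was -0.11 ± 0.16 (SE, limma adjusted p = 0.966). Its second probe set, 222147_s_at, read 8.0 and 8.48 against 8.04 and 8.49, so it separated the replicate numbers and not the groups (difference 0.03 ± 0.26, SE).

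ACTR8, a further actin-related subunit of INO80, was higher on both sh-ACTL6A arrays with its brighter probe set. That probe set, 222707_s_at, read 8.94 and 9.05 in scramble against 9.20 and 9.27 in sh-ACTL6A. The groups did not overlap, and the smallest difference between arrays of different groups, 0.15, was larger than the gap of 0.11 within scramble. The difference of 0.24 ± 0.17 (SE) nevertheless did not pass the test over genes (limma adjusted p = 0.931). Its second probe set, 218658_s_at, did not share the difference, with 7.73 and 8.02 against 7.78 and 8.0 (0.01 ± 0.23, SE).

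ACTR6, an actin-related subunit of SRCAP, gave 2 readings of very different size. The bright probe set 218395_at read 11.34 and 11.30 in scramble against 11.35 and 11.39 in sh-ACTL6A, a difference of 0.05 ± 0.12 (SE, limma adjusted p = 0.974). The dim probe set 241794_at read 5.28 and 6.09 against 6.13 and 6.95. Its groups did not overlap, although the higher scramble array and the lower sh-ACTL6A array were only 0.048 apart and the arrays of each group differed by about as much as the groups did. The difference of 0.86 ± 0.49 (SE) did not pass limma's test over all probe sets (adjusted p = 0.960), and 7.24% of the 5401 probe sets of like brightness differed at least as far. The 2 probe sets of each of ACTR5, ACTR6 and ACTR8 thus differed in size or direction, and the brighter of each pair gave the narrower error.

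**Figure D2:**
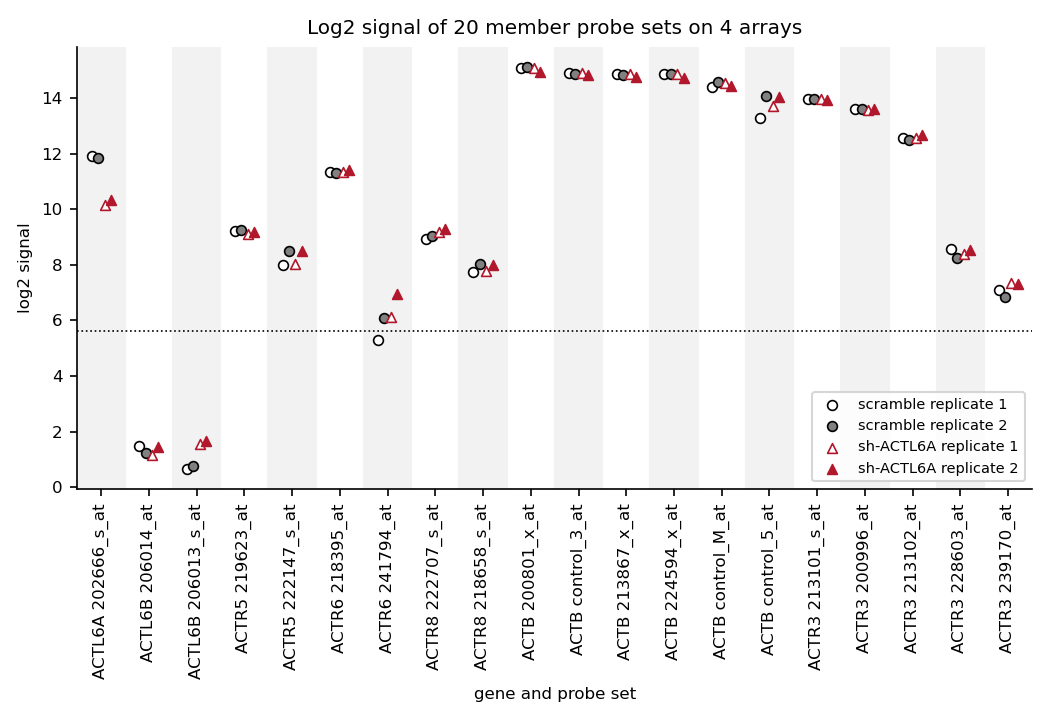
Log2 signal (vertical axis) of the 20 member probe sets (horizontal axis, grouped by gene) on each of the 4 arrays, 1 point per array, with scramble and sh-ACTL6A in different colours. ACTL6A separates into 2 groups at about 11.9 and 10.2, and both ACTL6B probe sets lie under 2. The points of most other bright probe sets lie close together, but those of the ACTB 5′ control run from 13.26 to 14.06.

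Beta-actin, the product of ACTB and a common loading reference, hardly differed between the groups. Its brightest probe set, 200801_x_at, read 15.07 and 15.11 in scramble against 15.08 and 14.93 in sh-ACTL6A, with overlapping groups. The difference was -0.08 ± 0.07 (SE, limma adjusted p = 0.941), and the 95% confidence interval as a fold ran from 0.840 to 1.07. The probe sets 213867_x_at and 224594_x_at differed by -0.03 ± 0.10 and -0.08 ± 0.11 (SE). The 3 ACTB control probe sets, which read the 3′ end, the middle and the 5′ end of the transcript, differed by -0.0047, 0.0056 and 0.21, the last with an SE of 0.26. The direction of these small differences depended on the scaling of the arrays, since 4 of the 6 lay below 0 as deposited and 2 of 6 after quantile normalisation or median centring.

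The 9 probe sets given to ACTB and ACTG1 together cannot be assigned to either actin and are outside the rule. They read 14.66 to 15.07 on single arrays and differed by -0.11 to -0.03 (median -0.07, SE 0.10 to 0.11). All 9 were below 0 as deposited and after median centring, but 2 of 9 turned above 0 after quantile normalisation, and the groups overlapped in 6. Their smallest limma adjusted p was 0.960. They share sequence with each other and with the ACTB probe sets, so they are repeated readings of the same transcripts and not separate evidence.

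ACTR3, a core subunit of the Arp2/3 complex, was measured by 5 probe sets. The brightest, 213101_s_at, read 13.95 and 13.96 in scramble against 13.97 and 13.91 in sh-ACTL6A, a difference of -0.01 ± 0.08 (SE, 95% confidence interval -0.20 to 0.17, limma adjusted p = 0.992). The probe sets 200996_at, 213102_at and 228603_at differed by -0.02 ± 0.10, 0.08 ± 0.11 and 0.05 ± 0.20 (SE), each with overlapping groups. Only the dimmest of the 5, 239170_at, separated the groups, with 7.08 and 6.85 in scramble against 7.36 and 7.31 in sh-ACTL6A (0.36 ± 0.26, SE; limma over all probe sets, adjusted p = 0.960). Of the 5 probe sets, 3 lay above 0 as deposited and 5 after quantile normalisation or median centring.

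**Figure D3:**
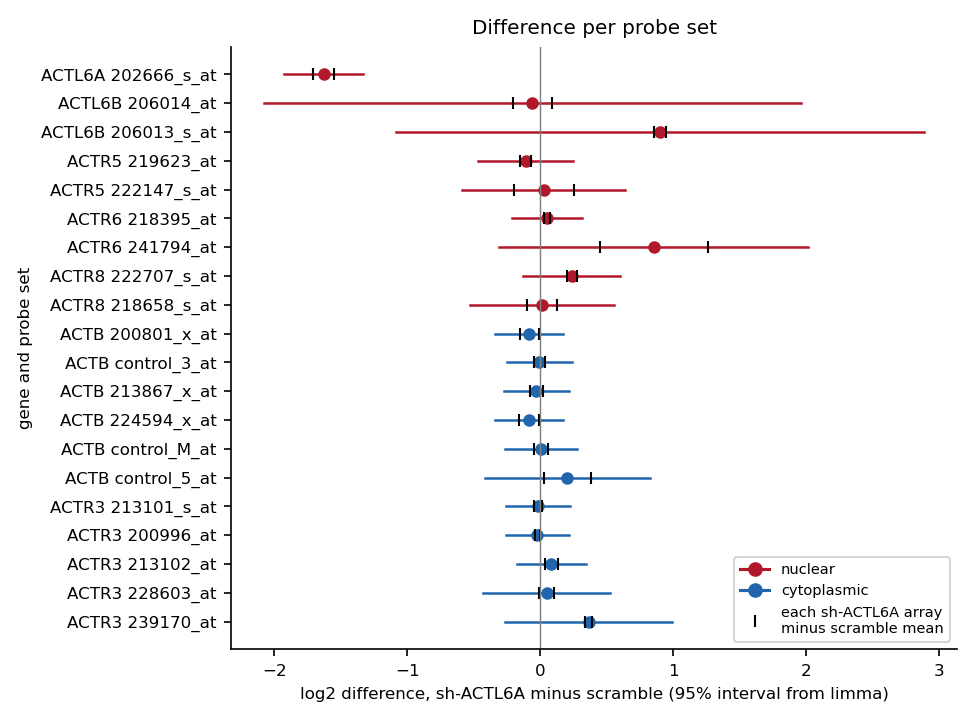
Log2 difference (sh-ACTL6A minus scramble, horizontal axis) for each of the 20 member probe sets (vertical axis), with points for the difference of group means, bars for the 95% confidence interval of the fit over all probe sets, and ticks for the 2 sh-ACTL6A arrays taken singly against the mean of scramble. The interval of ACTL6A, -1.92 to -1.34, lies below 0, the intervals of the other 19 probe sets contain 0, and those of ACTL6B are the widest.

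The nuclear and the cytoplasmic genes were then set side by side, as a description with no test over the lists. The 9 nuclear probe sets belong to 5 genes, and the 11 cytoplasmic ones to only 2, ACTB with 6 and ACTR3 with 5. Probe sets of the same gene are repeated readings and not separate evidence. Of the 9 nuclear probe sets 6 lay above 0 and 3 below (median 0.03), and without ACTL6A 6 lay above and 2 below (median 0.04). After quantile normalisation the last split was 5 to 3. Of the 11 cytoplasmic probe sets 5 lay above 0 and 6 below (median -0.0047), but quantile normalisation and median centring turned this to 9 above and 2 below (medians 0.04 and 0.03), so no direction can be given for them. Over all 54619 probe sets 27036 lay above 0 and 27583 below (median -0.0044). The nuclear median also depended on the array: it was -0.10 on sh-ACTL6A replicate 1 and 0.13 on sh-ACTL6A replicate 2, each against the scramble mean.

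Besides ACTL6A, none of the 19 probe sets reached an unadjusted p under 0.05, which 5.01% of all probe sets did. The groups did not overlap in 8 of the 20, 5 higher and 3 lower, where 33.8% of all probe sets did not overlap. Among the nuclear probe sets without ACTL6A this was 4 higher and 1 lower of 8, and among the cytoplasmic probe sets 1 higher and 1 lower of 11. The median size of the difference, with its sign dropped, was 0.069 over the 20 probe sets and 0.299 over all probe sets, of which about as many are dim as bright, while 18 of the 20 were above the signal threshold. Over all probe sets above that threshold it was 0.155. That set was not matched to the members in brightness. The 6 ACTB probe sets lay at the 99.1 to 99.9 percentile, and the spread narrows as probe sets become brighter. The values of 0.069 and 0.155 therefore do not show that members varied less than probe sets of like brightness.

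Several members differed between the replicate numbers in the same direction in both groups. Replicate 2 exceeded replicate 1 in both groups for ACTR6 241794_at (by 0.80 in scramble and 0.81 in sh-ACTL6A), ACTR5 222147_s_at (0.48 and 0.45), ACTR8 218658_s_at (0.30 and 0.23) and the 5′ control of ACTB (0.80 and 0.35). For all of these but ACTR6 241794_at, both gaps were larger than the difference between the groups. The excess of the 3′ over the 5′ control signal of ACTB was 1.63 and 1.21 on the replicate 1 arrays of scramble and sh-ACTL6A and 0.78 on both replicate 2 arrays. The same quantity for GAPDH was 0.29 and 0.22 on the replicate 1 arrays against 0.10 and 0.07 on the replicate 2 arrays. This excess is a measure of RNA length and quality, and its part in the readings of the 4 probe sets was not tested. Of the 20 member probe sets, 11 deviated in the same direction on the arrays of the same number. Over all tested genes the deviations of such arrays correlated at 0.0565.

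**Figure D4:**
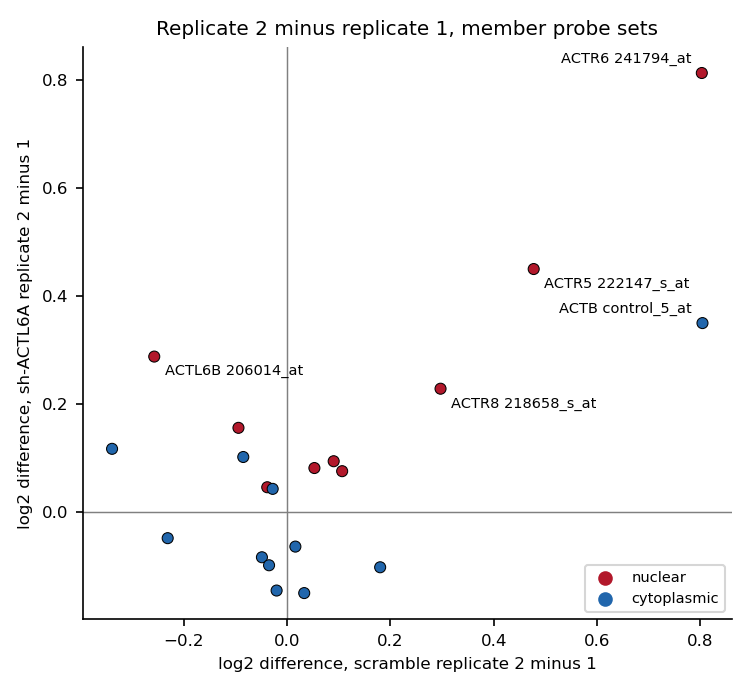
Replicate 2 minus replicate 1 in scramble (horizontal axis) and in sh-ACTL6A (vertical axis), both as log2 differences, 1 point per member probe set. ACTR6 241794_at (0.80 and 0.81), the ACTB 5′ control (0.80 and 0.35) and ACTR5 222147_s_at (0.48 and 0.45) lie farthest towards the upper right, while ACTL6A (-0.09 and 0.16) lies near the centre.

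The other genes that work with these proteins were read from 10 lists of 80 genes, of which 66 were tested. None of the 66 passed the adjusted threshold, 33 lay above 0 and 33 below, and the median was 0.0020 against 0.0090 over all genes. One gene, CCN1, reached an unadjusted p under 0.05, which 5.50% of all genes did. Groups did not overlap in 14 genes higher and 7 lower of 66, against 34.6% of all genes.

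Among other actins, 2 of 3 tested genes lay above 0. ACTC1, cardiac muscle actin, read 6.30 and 6.31 in scramble against 7.30 and 6.77 in sh-ACTL6A, and ACTA2, smooth muscle actin, read 9.93 and 10.23 against 10.39 and 10.48. Both sh-ACTL6A arrays were higher for each, with differences of 0.73 ± 0.31 and 0.35 ± 0.16 (SE, limma adjusted p = 0.909 and 0.917). The further ACTA2 probe sets, both below the signal threshold, differed the other way, by -1.37 and -2.26. ACTG2, the enteric smooth muscle actin, differed by -0.37 ± 0.49 (SE), and the smooth muscle markers DES, MYH11 and CNN1 were below the threshold.

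Among other actin-related proteins, 4 of 4 tested genes lay above 0, led by the dim ACTL10 at 0.81 ± 0.36 (SE, limma adjusted p = 0.915), which read 5.63 and 6.09 against 6.85 and 6.49. ACTR10, a dynactin subunit, ACTR3B, a paralogue of ACTR3, and ACTRT3 differed by 0.06 ± 0.12, 0.06 ± 0.16 and 0.03 ± 0.25 (SE), each with overlapping groups. For the partners of ACTR3 in Arp2/3, 1 of 7 genes lay above 0 and 6 below (median -0.04), and 3 of 7 above after quantile normalisation or median centring. ARPC5L read 12.21 and 12.18 against 12.12 and 11.98 (-0.15 ± 0.11, SE), while ARPC4, ARPC1B and ARPC1A differed by 0.11, -0.08 and -0.09. The 10 dynactin genes split into 5 above and 5 below, with DCTN1, the large subunit that binds dynein, at 0.20 ± 0.16, DCTN3 at 0.16 ± 0.11, DCTN5 at -0.27 ± 0.21 and DCTN6 at -0.14 ± 0.16 (SE). The groups overlapped for DCTN5, and its further probe sets above the threshold differed by 0.15, 0.01 and -0.12, so they did not share a direction.

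The ATPases that have an HSA domain and carry nuclear actin-related proteins were 4 above and 1 below 0. SMARCA2, one of the BAF motors, read 9.98 and 10.00 in scramble against 10.22 and 10.37 in sh-ACTL6A. The difference was 0.31 ± 0.15 (SE, limma adjusted p = 0.917). The further SMARCA2 probe sets above the threshold also lay above 0, at 0.35, 0.13, 0.23 and 0.05, with overlapping groups in all but the first. Those below the threshold differed by 0.23 and -1.79, and SMARCA2 stood at -0.07 with all its probe sets averaged. SMARCA4, the other BAF motor, differed by 0.13 ± 0.10, INO80 by -0.25 ± 0.16 and SRCAP by 0.13 ± 0.32 (SE). The second INO80 probe set above the threshold differed the other way, by 0.15 with overlapping groups, and INO80 stood at -0.05 with its probe sets averaged. The second SRCAP probe set above the threshold also differed the other way, by -0.42 with both sh-ACTL6A arrays lower than both scramble arrays. The SRCAP probe sets below the threshold differed by -0.45 and 1.22. With the brightest probe sets, groups did not overlap for SMARCA2 and SMARCA4, higher, and INO80, lower. The 11 partners around these modules split into 7 above and 4 below (median 0.08). BCL7A and BCL7C, BAF subunits, differed by 0.31 ± 0.19 and 0.48 ± 0.38, TFPT of INO80 by 0.29 ± 0.24 and ZNHIT1 of SRCAP by -0.17 ± 0.13 (SE).

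Proteins that bind actin monomers or carry actin in and out of the nucleus lay below 0 in 8 of 9 cases (median -0.04), a split of 4 above and 5 below after quantile normalisation. TMSB4X, thymosin beta-4, which sequesters monomers, differed by -0.18 ± 0.15, PFN2, a profilin, by -0.10 ± 0.09, TMSB10 by -0.05 ± 0.07 and CFL1, cofilin, by -0.06 ± 0.09 (SE). SRF and its MRTF cofactors, which are held back by monomeric actin, were read with their targets, 6 above and 6 below 0. CCN1, a matricellular target of this pathway, read 12.63 and 12.52 in scramble against 12.27 and 12.01 in sh-ACTL6A. Its difference of -0.44 ± 0.13 (SE, limma adjusted p = 0.739) was in the same direction in its second probe set (-0.51). FHL2 differed by -0.21 ± 0.09, CNN2 by 0.36 ± 0.18 and TPM2 by 0.19 ± 0.13 (SE), so the targets did not share a direction.

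**Figure D5:**
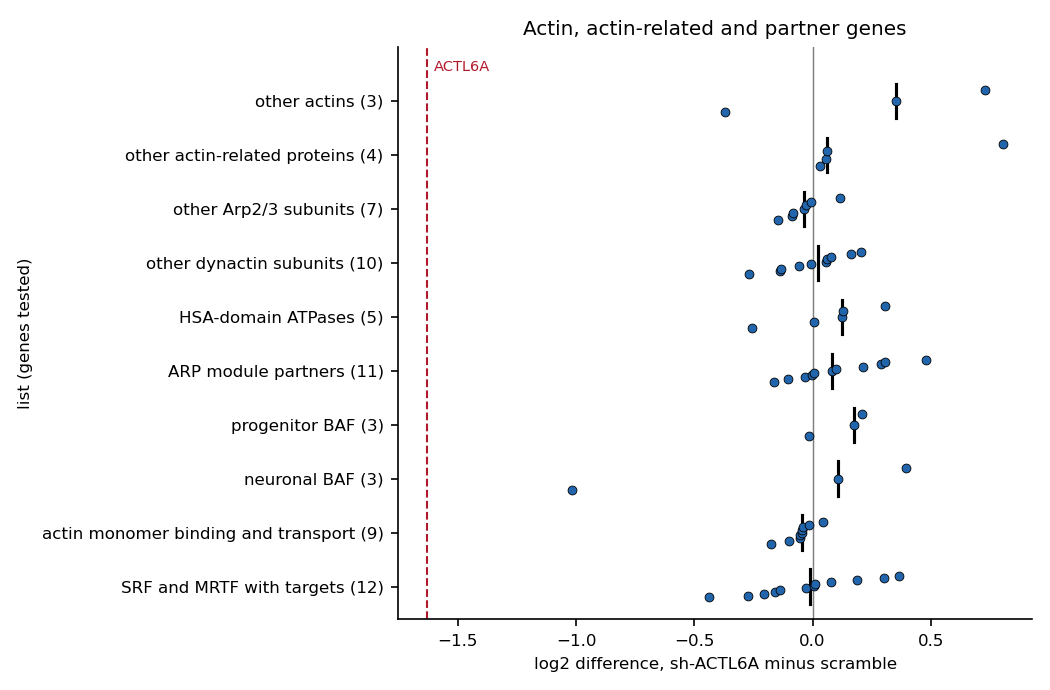
Log2 difference in the fit over genes (sh-ACTL6A minus scramble, horizontal axis) for each tested gene of the 10 lists (vertical axis), 1 point per gene (ACTR10 stands in 2 lists), a bar at the median of each list and a dashed line at ACTL6A. No gene passed the adjusted threshold, list medians run from -0.04 to 0.35, and the farthest points, DPF3 at -1.02, ACTL10 at 0.81 and ACTC1 at 0.73, have mean log2 signals of 5.89, 6.27 and 6.67.

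The tested genes whose profiles over the 4 arrays were nearest to that of ACTL6A, by the Euclidean distance between log2 signals centred on each gene's own mean, were CEACAM1 (distance 0.160), HTR4 (0.316), LAMTOR5-AS1 (0.390), KRTAP4-2 (0.399) and ABCC3 (0.462). Their mean signals were 5.64 to 6.86 and none passed the test (limma adjusted p 0.401 to 0.739). No member and no gene of the 10 lists was among them.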

How the data were processed

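Total RNA of SNU638 cells was labelled with biotin and hybridised to 4 oligonucleotide arrays, 2 scramble and 2 sh-ACTL6A, grouped by the sample titles. What the authors deposited are log2 signals of 54675 probe sets. The submitters' processing notes name MAS5, with its version not given in the sources used here, which summarises each array alone. The deposited log2 values correspond to a trimmed mean signal of 500.0 on every array (2% removed from each end), so they carry a global scaling. They were used with no further normalisation, and files without depth leave the number of arrays as the limit on precision. No genome build is named, and no coordinates are given.

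Gene symbols came from a platform annotation table. Leaving out 62 controls, 41091 probe sets had 1 symbol, 1801 several and 11721 none there. Differences were fitted with limma 3.58.1 in R 4.3.3 (lmFit, eBayes with an intensity trend, two-sided, Benjamini-Hochberg, threshold 0.05). The fit over genes used the brightest probe set of each gene and kept means of at least 5.63, the 50th percentile, leaving 12286 genes. The fit over 54619 probe sets had no filter and kept control probe sets with 1 symbol. Exact permutation of 2 against 2 arrays cannot go below p = 0.333, so no such test is given. Scripts were tested on simulated data.

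The members, the 10 lists and the tests were chosen with earlier results of these data known. Named were all members, up to 4 genes per list by the smallest unadjusted p, and the 5 genes nearest to ACTL6A. SLC2A3 and the further probe sets of CCN1, ACTA2, INO80, SMARCA2, SMARCA4, SRCAP, DCTN5, DPF3, SS18, TPM2 and CFL1 were added after their values were seen. Alternatives were quantile normalisation, median centring, an offset of 14.02 on the linear signal, no trend, the replicate number as a block, the methods' t-test, each array left out, no filter or the 75th percentile, and the mean of all probe sets.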

Additional observations from a re-analysis of the deposited data

How the results depend on the processing

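Of 862 comparisons of a result with an alternative setting, 789 were counted as the same and 73 as changed in direction, side of the threshold or size. Those 789 could still differ in size where direction and side of the threshold were kept. The difference of ACTL6B 206013_s_at, for example, was 0.90 as reported and 0.13 with the offset on the linear signal. ACTL6A differed by -1.71 to -1.55 under every alternative. It was called with median centring, the offset, the 75th percentile filter and the mean of all probe sets, but not after quantile normalisation (-1.64, adjusted p = 0.052), nor, at -1.63, without the trend (0.556), with no filter (0.0797) or with the methods' t-test (0.844). Under these 4 settings 0 genes were called (668, 690, 1080 and 672 at an unadjusted p under 0.05). Leaving out 1 array gave 0 to 401 called genes, 0 without either scramble array (305 and 465 at an unadjusted p under 0.05), 401 without sh-ACTL6A replicate 1 and 335 without sh-ACTL6A replicate 2, and adjusted p values for ACTL6A up to 0.9996. Such fits assume that the lone array varies like the pair of the other group, and no member besides ACTL6A was called in them. Why the calls moved was not tested.

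The replicate numbers do not pair the arrays by any label, and the deviations of arrays of the same number correlated at 0.0565 over genes. With the replicate block, 2 genes and 3 probe sets were called, ACTL6A among both (adjusted p = 0.0070 and 0.0115), and no other member.

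The median of the nuclear probe sets ran from -0.10 to 0.16 with 1 array left out. That of the cytoplasmic ones was 0.0418 after quantile normalisation and ran from -0.0451 to 0.0199 with 1 array left out. Small differences changed sign, and the cause was not tested. After quantile normalisation the gene values of ACTR3 (0.0418) and CFL1 (0.0081) did so, as did the probe sets of ACTL6B (206014_at, 0.0686), ACTR5 (222147_s_at, -0.0121), ACTR8 (218658_s_at, -0.0242), ACTB (3′ control 0.0602 and 213867_x_at 0.0354) and ACTR3 (213101_s_at, 0.0418, and 200996_at, 0.0210). After median centring this held for ACTR3 (0.0177), SS18 (0.0171), the ACTB 3′ control (0.0267) and 213867_x_at (0.0025), and ACTR3 200996_at (0.0112). With all probe sets averaged it held for ACTR3 (0.0929), SMARCA2 (-0.0695) and CFL1 (0.1159). Averaging also moved the members ACTR6 to 0.4534, ACTR8 to 0.1258 and ACTR5 to -0.0404, with no change of direction. The same held for INO80 at -0.0529, ARPC4 at 0.0608, ACTR3B at 0.1206, BCL7A at 0.5238, SMARCA4 at 0.2691, TPM2 at 0.4286 and SS18 at -0.0635.

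With 1 array left out, gene values that changed sign ran from -0.0453 to 0.0179 for ACTR3, -0.8240 to 0.0867 for ACTG2, -0.0257 to 0.1370 for ACTR10, -0.0892 to 0.2142 for ACTR3B, -0.0453 to 0.1103 for ACTRT3, -0.0553 to 0.2843 for ARPC4, -0.2571 to 0.0880 for ARPC1B, -0.3505 to 0.1736 for ARPC1A, -0.2941 to 0.0164 for DCTN6, -0.2476 to 0.5080 for SRCAP, -0.0023 to 0.9609 for BCL7C, -0.0511 to 0.0226 for SS18 and -0.1474 to 0.0366 for CFL1. Member probe sets that did so ran from -0.2019 to 0.0861 for ACTL6B 206014_at, -0.2118 to 0.2655 for ACTR5 222147_s_at, -0.1343 to 0.1629 for ACTR8 218658_s_at, -0.0461 to 0.0368, -0.0846 to 0.0957 and -0.1964 to 0.6075 for the ACTB 3′, middle and 5′ controls, -0.0778 to 0.0199 for ACTB 213867_x_at, and -0.0453 to 0.0179, -0.0420 to 0.0015 and -0.1207 to 0.2175 for ACTR3 213101_s_at, 200996_at and 228603_at. CCN1 ran from -0.57 to -0.31 and was called without sh-ACTL6A replicate 1 (adjusted p = 0.0111), and HTR4 was called without either sh-ACTL6A array.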
